A study of Mus musculus with 24 samples.

Results

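The fatty acid desaturases Fads1, Fads2, Fads3 and Fads6 and the elongases Elovl1, Elovl2, Elovl3, Elovl5 and Elovl7 were followed in mouse liver. They were found by their gene name in the array design, with an exact match of the symbol. This gave 22 probes for the 9 genes among 56605 probes on the array, and 21 of the 22 were among the 30003 probes bright enough to be tested.

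The animals were male C57Bl6J mice of the third generation of 2 lineages, raised on feed enriched either with high-oleic sunflower oil or with a fish oil in which eicosapentaenoic acid (EPA) abounds, and then given a low-fat or an obesogenic diet. The 9 reference mice (STD_Cont in the labels) and the 8 HFoleic mice (HFD_Cont) belonged to the oleic lineage, labelled control fatty acid. The reference mice ate a low-fat diet and the HFoleic mice a diet high in fat and sucrose. The 7 HFepa mice (HFD_O3) belonged to the omega 3 lineage and ate the same obesogenic diet. All were killed during the fasting period. Each liver was hybridised to 1 Agilent one-colour array, so n counts mice. Whether mice of a group came from separate litters or cages is not given in the sources used here, and p-values measure the spread between these mice. The lineage with EPA had no group on the low-fat diet, so HFepa differed from the reference in both diet and lineage, and these cannot be told apart in that comparison. Both comparisons with the reference use the same 9 mice, so their values are given side by side. HFoleic vs. reference addresses the diet within the oleic lineage, and HFepa vs. HFoleic the lineage under the obesogenic diet. These 2 comparisons share the 8 HFoleic mice, so a chance high or low HFoleic level moves their differences in opposite directions.

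The liver turns the dietary precursors linoleic and alpha-linolenic acid into long polyunsaturated chains by alternating steps that add a double bond and steps that lengthen the chain. Fads2 is the delta-6 desaturase that opens this sequence, Elovl5 lengthens its product, Fads1 is the delta-5 desaturase that forms arachidonic acid and EPA, and Elovl2 continues to the longest chains on the way to docosahexaenoic acid. Elovl1, Elovl3 and Elovl7 act mostly on saturated and monounsaturated very long chains, Fads3 introduces a double bond into the sphingoid base of ceramides, and Fads6 has no role given here. The best known regulators of the desaturases are SREBP1c, the protein of Srebf1, and PPARalpha, and long polyunsaturated fatty acids are known to lower the activity of the former.

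The probes behind the results differ in where they lie, and the first 30 of the 60 bases of those on which the results turn are shown so that they can be told apart. The positions are those of the array design on the mm9 genome, 5′ to 3′ on the strand of the transcript. No gene models of that build were used here, so exons and introns were not assigned. Fads1 probes 1 and 3 were designed on the RefSeq transcript NM_146094 (chr19:10257644-10257703 and chr19:10270530-10270589, plus strand). Probe 2 was designed on the cDNA clone AK080706 and lies between them (chr19:10261805-10261864), 4161 bases beyond probe 1, while probe 3 lies 12886 bases beyond probe 1.
Fads1 probe 1: aaggagcgatggctcgtgatcgaccggaag
Fads1 probe 2: tgagtacagctggcttctgtatctctagat
Fads1 probe 3: gagaatataggaacatgcccggagagacct

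Of the 5 Fads2 probes, on the minus strand of the same chromosome, 2 are shown because they pair with Fads1 probes over mice. Probe 3 was designed on NM_019699 and gave the brightest signal (chr19:10138750-10139180, a span that exceeds the probe's 60 bases). Probe 4 was designed on the cDNA clone AK031337 (chr19:10161035-10161094).
Fads2 probe 3: gtgagttcactgaagaagtctggggagctg
Fads2 probe 4: cagccttgacatatcatttcttaaatgagc

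The 3 Elovl5 probes lie on chromosome 9, plus strand, in the order of their numbers. Probe 1 was designed on the Ensembl transcript ENSMUST00000148398 (chr9:77805265-77805324), probe 2 on the predicted RefSeq transcript XM_011242807 (chr9:77827724-77827983) and probe 3 on the RefSeq transcript NM_134255 (chr9:77832205-77832264).
Elovl5 probe 1: tttcacagtggttgatggtggtacgatttc
Elovl5 probe 2: tggtggaaaaagtacatcactcaagggcag
Elovl5 probe 3: ctcaatacaaaaattataacatttgatagt

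Among the 231 pairs of the 22 probes, the longest identical run was 10 bases. Each gene is represented below by its brightest tested probe, and beyond that choice no level of a member probe was set against that of another probe. For the cell type markers, levels of different genes were set side by side, to tell which gene weighs most in a sum. Values are log2 of the median spot signal after quantile normalisation, and differences are on that log2 scale.

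Between 50.9% and 60.8% of all probes were well above background on an array, no spot was saturated, and each of the 3 slides carried all 3 groups. All 10 hepatocyte markers tested were well above background on every array. Reference replicate 5 stood apart from its group: its summed bile duct marker signal was 13.40, against 10.45 to 11.41 in the other 8 reference livers, its stellate cell marker signal was 15.68, against 14.19 to 15.06, and its hepatocyte marker signal was 20.32, against 20.43 to 20.50. Such sums weigh the brightest gene most. In the reference mean the bile duct sum was led by Spp1 (10.91), against 7.89 for Sox9, 6.64 for Krt19 and 6.12 for Krt7. The stellate cell sum was led by Dcn (14.41). These 2 sums therefore mostly read Spp1 and Dcn. Values that rest on reference replicate 5 are given with and without it. The summed signal of 4 fat tissue markers varied widely within groups, from 8.78 to 12.60 in the reference, 8.87 to 13.44 in HFoleic and 8.74 to 12.51 in HFepa. It mostly reads 1 gene, Cfd, whose HFoleic mean was 10.03, against 7.76 for Lep, 6.08 for Retn and 5.91 for Plin1. In HFoleic vs. reference, 2 of 10 hepatocyte markers were lower (Cps1 −0.89, Tat −0.63) and 1 higher (Asgr1 0.21), 1 of 7 stellate cell markers was higher (Lrat 0.56) and 1 of 4 tested bile duct markers lower (Sox9 −0.65), with no call in the other 2 comparisons for these lists. The part of such markers in the values below was not tested. In bulk tissue, fewer cells of a type and less RNA per cell cannot be told apart.

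In HFoleic vs. reference, 2 of the 21 probes passed the test at an adjusted p below 0.05 (limma, Benjamini-Hochberg over all tested probes), a Fads1 probe that was higher and an Elovl5 probe that was lower. That is 9.52% of the members, and 7.23% of all tested probes passed in this comparison, 4.05% higher and 3.19% lower. The Elovl5 probe met the brightness filter only through the reference, where it was highest, so its call is not independent of the filter, and without it 1 call remained. The other 19 probes did not pass, among them the brightest probe of each of the 9 genes. In HFepa vs. reference 0 of 21 passed, where 0.393% of all tested probes did, and in HFepa vs. HFoleic 0 of 21, where 0% did. By unadjusted p under 0.05 the counts were 7, 4 and 1, or 33.3%, 19% and 4.76% of the member probes, against 21.1%, 13.5% and 9.7% of all tested probes. The methods' test for each probe by itself gave 6, 4 and 0 at an unadjusted p under 0.05 and 1, 0 and 0 after adjustment. The median difference over the 21 probes was −0.07, −0.08 and −0.03, where that over all tested probes lay within 0.01 of 0.

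**Figure D1:**
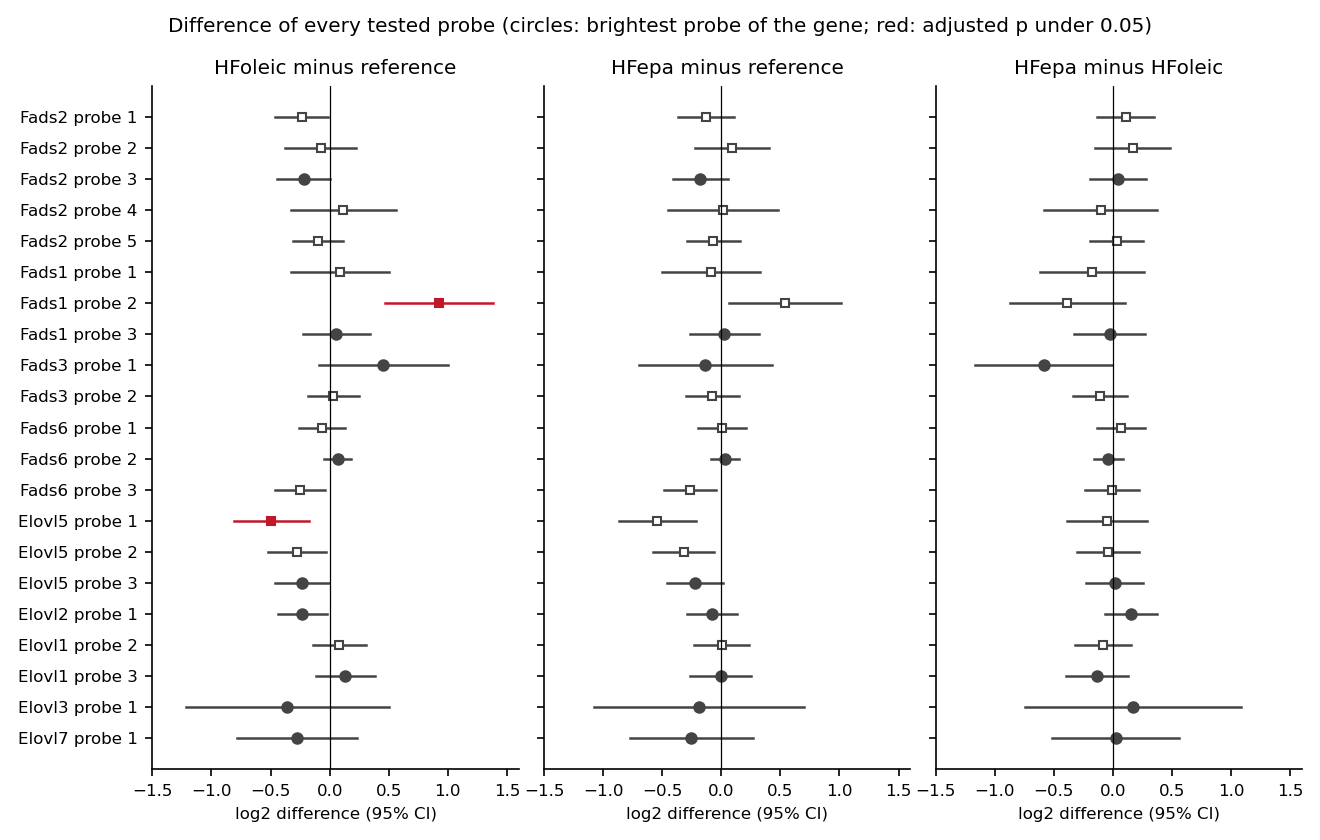
Log2 difference of each of the 21 tested probes (points) with its 95% confidence interval from limma (lines), in the 3 comparisons. Circles are the brightest probe of a gene, squares the others, and red marks an adjusted p below 0.05; only Fads1 probe 2 and Elovl5 probe 1 are red, both in HFoleic minus reference.

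Fads1 gave the largest difference among the member probes. Probe 2 of this delta-5 desaturase read 8.04 to 8.96 in the reference (median 8.37), 8.67 to 10.08 in HFoleic (median 9.35) and 8.42 to 9.66 in HFepa (median 8.77). All 8 HFoleic livers lay above the reference mean and 5 of the 8 above the highest reference liver, so the groups overlapped in part. The means were 8.42 ± 0.32 (SD, n = 9), 9.35 ± 0.56 (n = 8) and 8.96 ± 0.57 (n = 7). The HFoleic mean exceeded the reference by 0.92 (SE 0.22, adjusted p = 0.0108, limma), a 1.90-fold difference with a 95% interval from 1.38 to 2.60. The HFepa mean was 0.54 above the reference (SE 0.23, unadjusted p = 0.0266, adjusted p = 0.291, limma), with 6 of 7 livers above the reference mean, and did not pass. HFepa vs. HFoleic differed by −0.38 (95% interval −0.87 to 0.10, adjusted p = 0.613, limma), so a lower level in HFepa of up to 0.87 is within the error.

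The HFoleic livers were higher on every slide, by 1.07, 0.69 and 0.91 on slides 1, 2 and 3, and in both slide rows, by 1.06 and 0.79 (3, 2 and 3 HFoleic livers on the slides). For HFepa vs. reference the same values were 0.08, 0.56 and 1.01 on the slides and 0.13 and 0.84 in the rows, with 2 or 3 HFepa livers to a slide. HFepa vs. HFoleic was −0.996, −0.14 and 0.10 on the slides. Without reference replicate 5 the difference of HFoleic vs. reference was 0.88 (adjusted p = 0.0194, limma).

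The other Fads1 probes did not pass. Probe 3, the brightest, read 11.98 ± 0.22 (SD, n = 9) in the reference, 12.04 ± 0.36 (n = 8) in HFoleic and 12.01 ± 0.31 (n = 7) in HFepa. Its difference in HFoleic vs. reference was 0.05, with a 95% interval from −0.23 to 0.34 that lies below the interval of probe 2, from 0.47 to 1.38, although the difference between the probes was not itself tested. Probe 1 was 7.38 ± 0.60 (n = 9), 7.47 ± 0.30 (n = 7, 1 liver having no usable spot) and 7.30 ± 0.20 (n = 7). Its difference in HFoleic vs. reference was 0.09 (95% interval −0.33 to 0.50). Reference replicate 3 alone, at 8.96, stood far above the next reference liver, at 7.29, and raised the reference mean. The medians of probe 1 were 7.22 in the reference, 7.39 in HFoleic and 7.24 in HFepa, and its difference without that liver is not given here. The 2 probes on the RefSeq transcript therefore gave no call, and the only Fads1 call came from the probe on a cDNA clone. The mean over the 3 probes, which that probe pulls up, was 0.47 higher in HFoleic than in the reference (adjusted p = 0.0407, limma). Over the 24 livers, with group means removed, the correlation of probe 2 was 0.43 with probe 3 and −0.0001 with probe 1 (n = 23). The value with probe 1 includes reference replicate 3, and r without that liver is not given here.

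**Figure D2:**
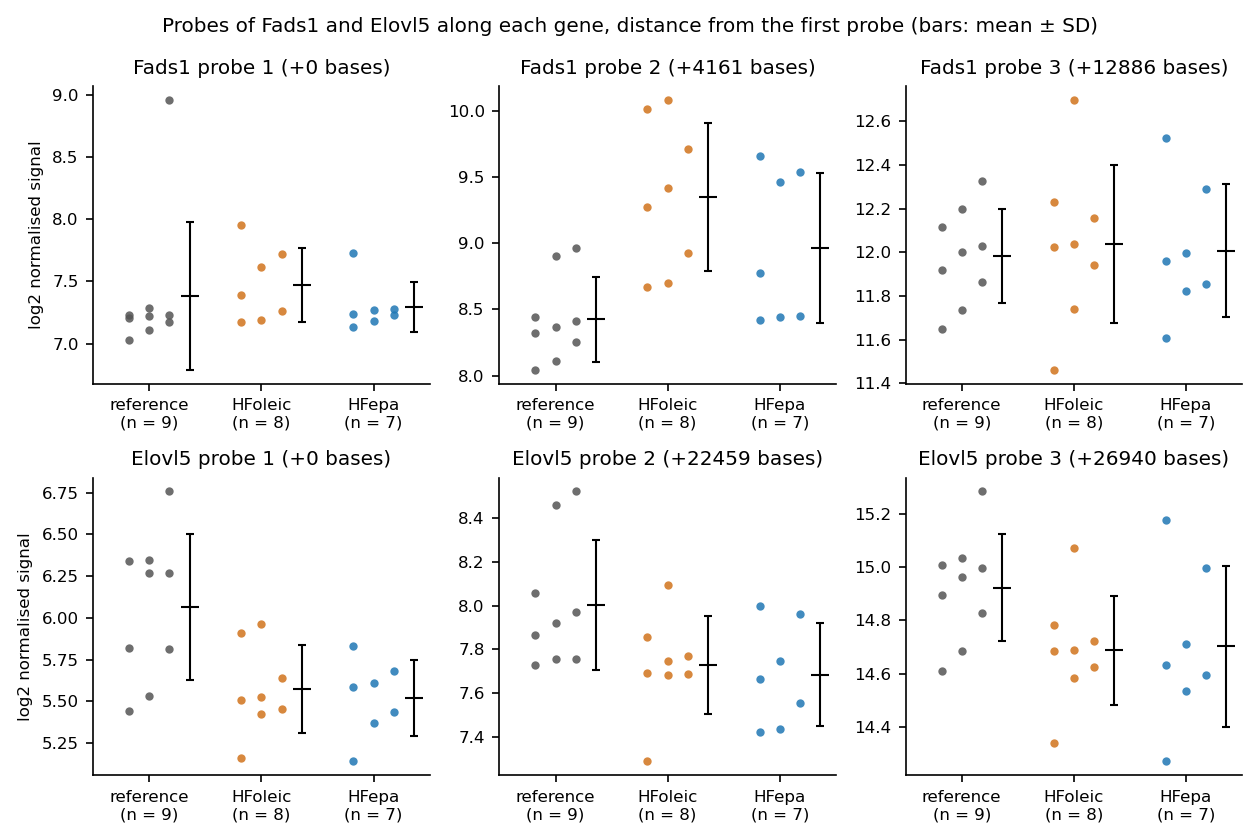
Log2 normalised signal of the 3 Fads1 probes (top) and the 3 Elovl5 probes (bottom) in each liver (points), with group means and SD (bars); titles give the distance from the first probe of the gene. Fads1 probe 2 is the one probe of that gene whose HFoleic mean (9.35) stands clear of the reference mean (8.42), while all 3 Elovl5 probes have lower means on the obesogenic diet.

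Elovl5, which lengthens the products of Fads2, was lower with all of its 3 probes in both obesogenic groups, although only 1 of these 6 differences passed. Probe 3, the brightest, read 14.61 to 15.29 in the reference (median 14.96), 14.34 to 15.07 in HFoleic (median 14.69) and 14.27 to 15.18 in HFepa (median 14.63). The groups overlapped, and the differences from the reference were −0.24 (95% interval −0.46 to −0.01, adjusted p = 0.217, limma) and −0.22 (−0.46 to 0.01, adjusted p = 0.413, limma). Probe 2 gave −0.28 (adjusted p = 0.174, limma) and −0.32 (adjusted p = 0.244, limma), and it varied with probe 3 over mice (r = 0.72, n = 24).

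Probe 1 of Elovl5 gave the call, at 5.44 to 6.76 in the reference (median 6.27), 5.16 to 5.96 in HFoleic (median 5.52) and 5.14 to 5.83 in HFepa (median 5.59). It was dim: it was well above background on 7 of 9 reference arrays, 2 of 8 HFoleic arrays and 1 of 7 HFepa arrays. It met the brightness filter only through the reference, the group in which it was highest, so its selection favoured a lower value elsewhere. The difference was −0.49 in HFoleic (SE 0.15, adjusted p = 0.0490, limma) and −0.54 in HFepa (SE 0.16, adjusted p = 0.112, limma), and 8 of 8 and 7 of 7 livers lay below the reference mean. On slides 1, 2 and 3 the HFoleic difference was −0.84, −0.54 and −0.13. When each of the 24 livers was left out in turn, the call was lost in 17 of the 24 fits, such as that without reference replicate 5 (−0.46, adjusted p = 0.0772, limma), and the size rose to −1.41 when the background-subtracted signal was used. Probe 1 did not vary with probe 3 of the same gene over mice (r = −0.04, n = 24). The mean over the 3 Elovl5 probes was −0.34 in HFoleic vs. reference (adjusted p = 0.0288, limma), which passed. In HFepa vs. reference it was −0.36 (adjusted p = 0.0877, limma), which did not. This mean includes probe 1, whose selection favoured a lower value outside the reference.

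HFepa vs. HFoleic differed by 0.01 for Elovl5 probe 3 (95% interval −0.23 to 0.26).

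Fads2, the delta-6 desaturase at the entry of the pathway, did not pass in any comparison with any of its 5 probes. Probe 3 read 12.91 to 13.33 in the reference (median 13.11), 12.52 to 13.49 in HFoleic (median 12.96) and 12.68 to 13.44 in HFepa (median 12.95). The lowest and the highest liver of all 24 were both in HFoleic, and the SD was 0.14, 0.30 and 0.24 in the 3 groups. Differences from the reference were −0.22 in HFoleic (95% interval −0.45 to 0.00, adjusted p = 0.247, limma) and −0.18 in HFepa (−0.41 to 0.06, adjusted p = 0.532, limma), with 7 of 8 and 6 of 7 livers below the reference mean. The 5 probes ranged from −0.24 to 0.12 in HFoleic vs. reference and from −0.18 to 0.09 in HFepa vs. reference. HFepa vs. HFoleic was 0.04 for probe 3 (95% interval −0.20 to 0.28).

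Elovl2, the elongase of the longest polyunsaturated chains, has 1 probe on the array, which read 14.25 to 14.86 in the reference (median 14.52), 13.92 to 14.59 in HFoleic (median 14.37) and 14.18 to 14.72 in HFepa (median 14.46). The HFoleic mean was 0.23 lower (−0.23, SE 0.10, unadjusted p = 0.0295, adjusted p = 0.175, limma), with 7 of 8 livers below the reference mean, and did not pass. The HFepa mean differed by −0.08 from the reference (95% interval −0.29 to 0.14) and by 0.15 from HFoleic (−0.06 to 0.37).

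Fads3, the ceramide desaturase, had a brightest probe at 7.43 to 8.77 in the reference (median 7.56), 7.68 to 10.35 in HFoleic (median 7.88) and 7.44 to 7.73 in HFepa (median 7.64). Its mean was 0.45 higher in HFoleic than in the reference (SE 0.26, adjusted p = 0.344, limma), but HFoleic replicate 6 alone, at 10.35, stood far above the other 7 HFoleic livers, the next of which was at 8.09. That liver also had the highest summed fat tissue marker signal of its group (13.44), a sum that mostly reads Cfd. The part of this in the Fads3 value was not tested. Without it the difference was 0.14 (adjusted p = 0.635, limma), and HFepa vs. HFoleic changed from −0.59 (adjusted p = 0.512, limma) to −0.28 (adjusted p = 0.605, limma). The highest reference value, 8.77, was that of reference replicate 5, without which HFoleic vs. reference was 0.58 (unadjusted p = 0.0314, adjusted p = 0.179, limma) and HFepa vs. reference changed from −0.13 to −0.0066. The other Fads3 probe differed by 0.03 (95% interval −0.19 to 0.25).

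The brightest probe of Fads6 had the narrowest spread, with 9.19 to 9.58 in the reference, 9.29 to 9.56 in HFoleic and 9.30 to 9.49 in HFepa. Its differences were 0.07, 0.03 and −0.04 in the 3 comparisons, and their 95% intervals together spanned −0.16 to 0.18. Another of its probes, probe 3, was lower by unadjusted p in both obesogenic groups, with −0.25 (adjusted p = 0.151, limma) and −0.26 (adjusted p = 0.272, limma), and did not vary with the brightest one over mice (r = −0.07, n = 24).

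**Figure D3:**
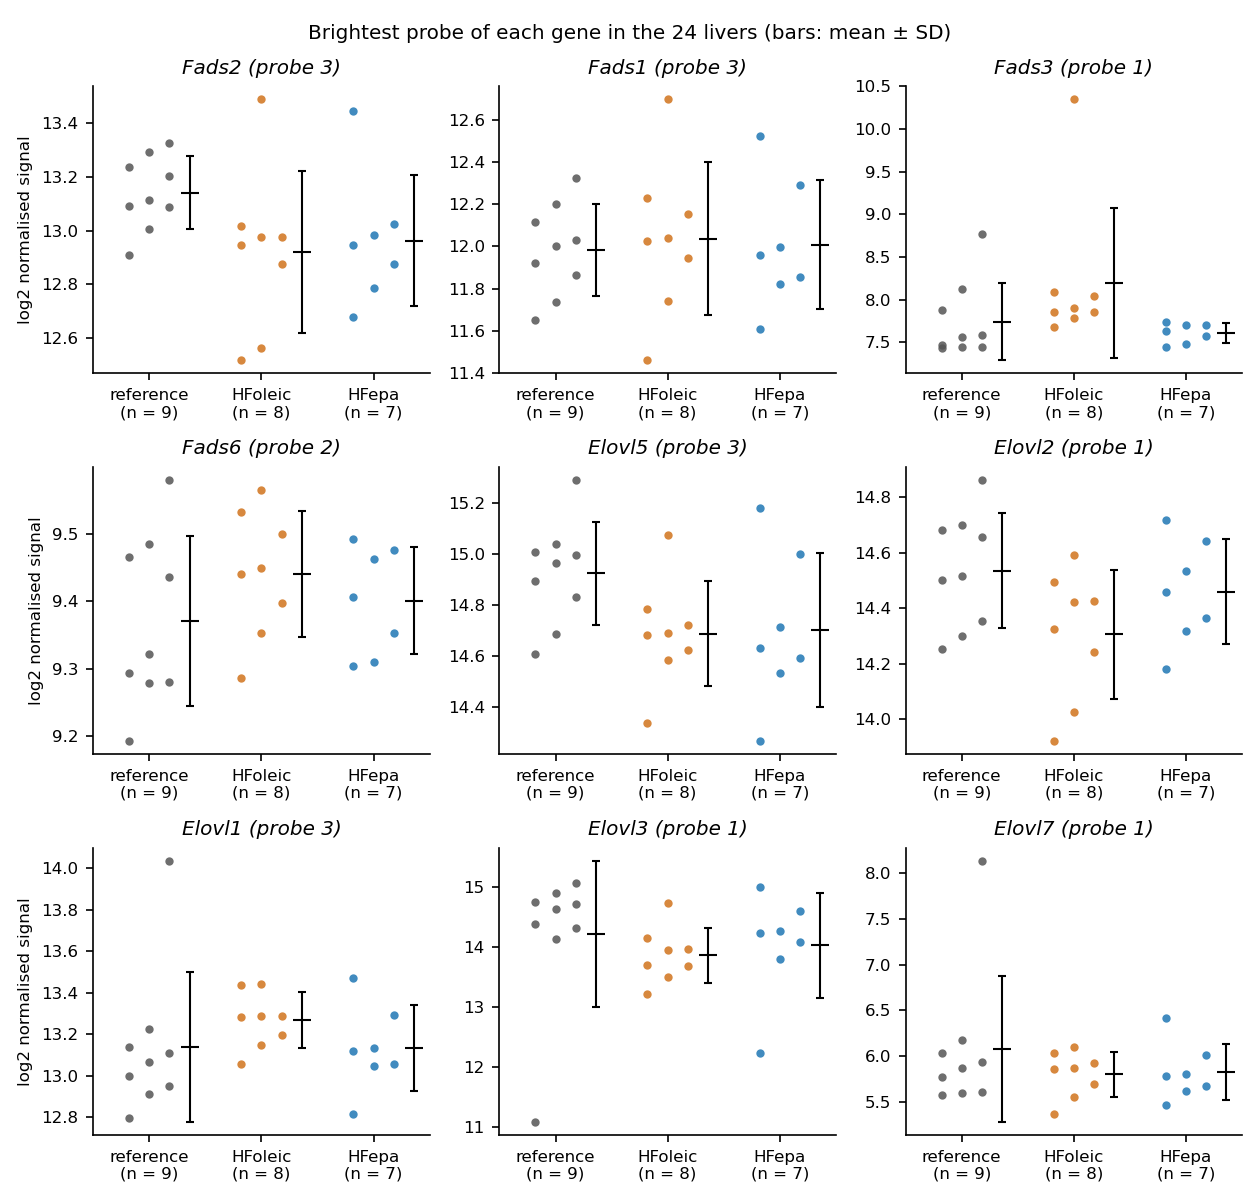
Log2 normalised signal of the brightest probe of each of the 9 genes in the 24 livers (points), by group, with mean and SD (bars); each panel has its own axis, and levels are not comparable between panels. One reference liver (replicate 5) is the lowest for Elovl3 at 11.09 and the highest for Elovl1 at 14.04 and Elovl7 at 8.13, and 1 HFoleic liver (replicate 6) is the highest for Fads3 at 10.35.

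The elongases of saturated and monounsaturated chains depended on the reference liver that stood apart. Elovl3, known in liver for its male and day-time dependent level, read 11.09 to 15.07 in the reference (median 14.63), 13.21 to 14.74 in HFoleic (median 13.83) and 12.24 to 15.00 in HFepa (median 14.23), the widest range of the 9 genes. Its difference was −0.36 in HFoleic (SE 0.42, adjusted p = 0.689, limma) and −0.19 in HFepa (SE 0.43, adjusted p = 0.905, limma). Without reference replicate 5, which held the 11.09, these became −0.75 (unadjusted p = 0.0107, adjusted p = 0.0954, limma) and −0.58 (unadjusted p = 0.0486, adjusted p = 0.399, limma), still short of the threshold.

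Elovl1, the elongase of saturated very long chains, read 12.80 to 14.04 in the reference (median 13.07), 13.06 to 13.44 in HFoleic (median 13.29) and 12.82 to 13.47 in HFepa (median 13.12). It was 0.13 higher in HFoleic (adjusted p = 0.596, limma), and 0.24 higher without reference replicate 5 (unadjusted p = 0.00576, adjusted p = 0.0660, limma). Of its other probes, probe 2 followed it closely over mice (r = 0.93, n = 24), and probe 1 was well above background on 1 of 9 reference arrays and on 0 arrays of the other groups and was not tested.

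Elovl7 was dim, with its probe well above background on 7 of 9 reference arrays, 4 of 8 HFoleic arrays and 4 of 7 HFepa arrays, and it too met the filter only through the reference. It read 5.58 to 8.13, 5.37 to 6.10 and 5.47 to 6.41. The difference of −0.28 in HFoleic (SE 0.24, adjusted p = 0.572, limma) fell to −0.02 without reference replicate 5 (adjusted p = 0.95, limma).

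Which of the 9 genes varied together between livers was examined with the group means removed, over 36 pairs of their brightest probes (two-sided permutation test within groups, 100000 resamples, Benjamini-Hochberg over the 36 pairs). By Pearson's r, 8 pairs passed, and 5 of these 8 also by Spearman's rho. Fads1 and Fads2 gave r = 0.89 (permutation p = 1e-05, the smallest that the resamples allow, adjusted p = 0.00036) and rho = 0.77 (adjusted p = 0.00252). Their r was 0.80 without the 2 livers farthest out, 0.74, 0.90 and 0.90 within slides 1, 2 and 3, and 0.92 without reference replicate 5. Among all 20110 genes, Fads1 and Fads2 were each the gene most like the other by this measure. So the brightest probes of the delta-5 and delta-6 desaturases rose and fell together from liver to liver within groups, while neither passed between groups.

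Elovl5 and Elovl2 also varied together (r = 0.64, adjusted permutation p = 0.0121; rho = 0.66, adjusted permutation p = 0.0110), and r was 0.61 without the 2 livers farthest out and 0.79, 0.59 and 0.61 within the slides. Fads2 and Elovl3 went in opposite directions (r = −0.51, adjusted permutation p = 0.0151; rho = −0.62, adjusted permutation p = 0.0146), but r was −0.07 within slide 2. Fads2 and Fads6 gave r = 0.48 (adjusted permutation p = 0.0467) and rho = 0.58 (adjusted permutation p = 0.0291), with r = 0.60 without the 2 livers farthest out.

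The pair of Elovl1 and Elovl7 gave r = 0.89 (adjusted permutation p = 0.00234) and rho = 0.73 (adjusted permutation p = 0.00540), and r fell to 0.67 without reference replicate 5. The remaining 3 pairs passed by r and not by rho. Elovl3 and Elovl7 changed from r = −0.82 to −0.42 without that liver, and Fads6 and Elovl3 from −0.53 to −0.30. Fads2 and Fads3 stayed at 0.58 (0.59 with it) but had rho = 0.29, and r was 0.40 without the 2 livers farthest out.

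**Figure D4:**
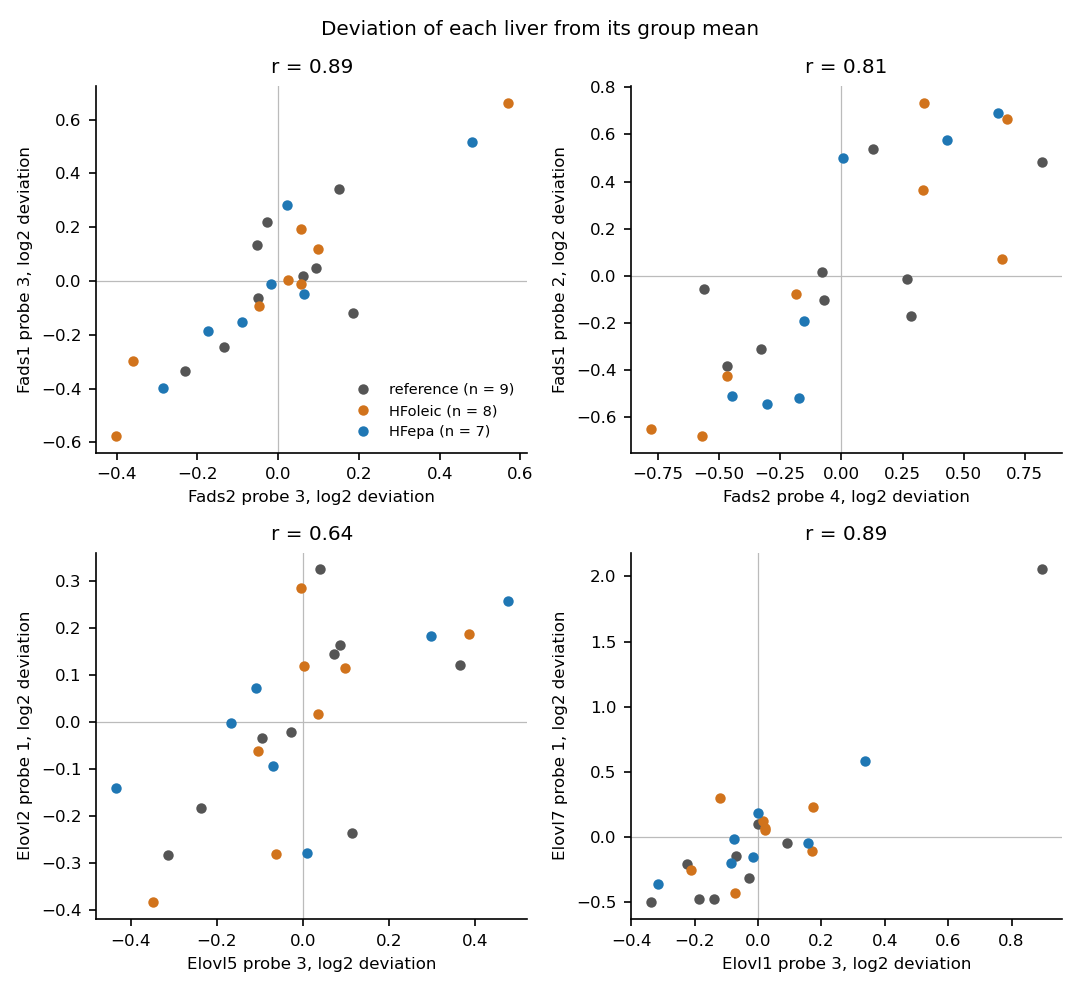
Deviation of each of the 24 livers from its group mean (log2), for 4 pairs of probes, coloured by group, with Pearson's r above each panel. Fads1 with Fads2 and Elovl5 with Elovl2 vary together in all 3 groups, the pair of probes designed on cDNA clones (top right) does so too, and the single reference liver at the upper right of the Elovl1 and Elovl7 panel is replicate 5.

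Fads1 probe 2, which gave the call, varied with another probe. Against the other 20 member probes, a comparison chosen after seeing the data, its highest correlation was with Fads2 probe 4, at r = 0.81 (permutation p = 3e-05, adjusted p = 0.0006 over 20) and rho = 0.82 (adjusted permutation p = 0.0004). It was 0.85, 0.78 and 0.79 within slides 1, 2 and 3. Both probes were designed on cDNA clones and lie between other probes of their genes, on opposite strands, and the longest run shared by their sequences was 5 bases. Fads2 probes 2 and 1 followed with r = 0.67 and 0.64 (adjusted permutation p = 0.0172 and 0.0195), and no other of the 20 passed. These 2 probes were likewise not designed on a RefSeq transcript but on AK192544 and AK215784. The Fads2 probes on NM_019699, 3 and 5, gave r = 0.43 and 0.50 (adjusted permutation p = 0.221 and 0.0671). Fads2 probe 4 itself did not differ between HFoleic and the reference beyond its error (0.12, 95% interval −0.33 to 0.56).

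Over all genes, those most like Fads1 probe 2 from liver to liver were Msmo1, an enzyme of cholesterol synthesis (r = 0.78, rho = 0.75), and Dbp, a clock-controlled transcription factor (r = 0.76, rho = 0.76), each over 24 livers that share arrays and normalisation. For Elovl5 probe 1 they were D9Wsu90e (r = 0.76), Ddx55, an RNA helicase (r = 0.71), and 9930104L06Rik (r = 0.70).

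The promoters of pairs of genes that varied together are shown as the 250 bases before the RefSeq start in the mouse build GRCm38.p6, with capitals marking, on either strand, the E-box letters CACGTG, the box named after its letters CCAAT, and the GC box, written GGGCGG. A table of RefSeq promoters held 7 of the 9 genes, with 9 starts, and Fads1 and Elovl3 were not among them.
Fads2 promoter, chr19:10101504-10101753, minus strand: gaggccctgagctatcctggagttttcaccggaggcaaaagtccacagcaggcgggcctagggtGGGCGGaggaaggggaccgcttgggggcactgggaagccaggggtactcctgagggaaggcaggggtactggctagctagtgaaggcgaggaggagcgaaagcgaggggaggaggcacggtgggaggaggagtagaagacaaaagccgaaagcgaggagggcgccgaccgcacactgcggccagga
Elovl5 promoter, chr9:77917115-77917364, plus strand: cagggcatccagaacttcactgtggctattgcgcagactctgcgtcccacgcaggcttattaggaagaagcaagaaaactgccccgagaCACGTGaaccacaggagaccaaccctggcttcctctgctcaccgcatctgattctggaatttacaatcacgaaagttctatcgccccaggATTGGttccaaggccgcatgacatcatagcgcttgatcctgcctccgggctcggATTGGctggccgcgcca
Elovl2 promoter, first of its starts, chr13:41220404-41220653, minus strand: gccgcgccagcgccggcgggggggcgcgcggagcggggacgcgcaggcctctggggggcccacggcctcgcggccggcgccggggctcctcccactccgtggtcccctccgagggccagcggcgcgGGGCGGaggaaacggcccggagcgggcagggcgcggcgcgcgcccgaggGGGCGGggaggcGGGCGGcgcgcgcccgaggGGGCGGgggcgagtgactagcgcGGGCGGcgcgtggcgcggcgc

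The Elovl5 window holds 1 CACGTG and 2 CCAAT boxes in the reverse sense, the Elovl2 window 5 GGGCGG and the Fads2 window 1, and none of these matches overlap. Of 32851 promoter windows of this length, 6.02% hold CACGTG, 33.85% CCAAT and 32.74% GGGCGG. The sterol regulatory element TCACNCCAC, in 1.05% of windows, was in 0 of the 9 member windows, and the nuclear receptor element AGGTCA, in 14.02%, was in 1 window each of Fads6 and Elovl1. These matches are descriptions of the letters and not of bound sites.

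The genes around the pathway were read from lists, each by its brightest tested probe, and 8.06% of the 20110 genes passed in HFoleic vs. reference (4.53% higher, 3.53% lower), 0.388% in HFepa vs. reference (0.199% higher) and 0% in HFepa vs. HFoleic. No gene of any list was called in HFepa vs. HFoleic, where by unadjusted p under 0.05 9.7% of all probes passed. Listed medians are to be read against medians over all genes of −0.01, 0.00082 and 0.01 in the 3 comparisons. Of the 5 tested genes listed for electron transfer to desaturases, 1 was called, Cyb5b, a cytochrome b5. It was 0.64 higher in HFoleic (SE 0.12, adjusted p = 0.00224, limma), and whether it serves the desaturases followed here was not tested. Cyb5a, the electron donor of the microsomal desaturases, was not called, at 0.22 (adjusted p = 0.0642, limma). All 5 were above the reference in HFoleic (median 0.15) and all 5 were lower in HFepa than in HFoleic (median −0.15). Both comparisons use the same HFoleic livers, which by itself favours opposite signs. HFepa vs. reference gave 0.26 for Cyb5b (adjusted p = 0.351, limma) and 0.04 for Cyb5a (adjusted p = 0.874, limma).

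None of the 6 partners of the elongation cycle was called in any comparison, with Hsd17b12, the ketoacyl reductase of the cycle, at 0.20 (adjusted p = 0.225, limma) and Hacd3, a dehydratase, at −0.11 (adjusted p = 0.373, limma) in HFoleic vs. reference and list medians of −0.01, 0.04 and 0.03 in the 3 comparisons. None of the 5 tested enzymes of saturated and monounsaturated chains was called, with Scd3 at −0.62 (adjusted p = 0.0883, limma) and Scd1, the main stearoyl-CoA desaturase of liver, at −0.49 (adjusted p = 0.147, limma) in HFoleic vs. reference (median −0.34). All 5 lay below the reference in HFepa livers, Scd1 by −0.51 (adjusted p = 0.266, limma), and the median was −0.43, where the median over all genes was 0.00082.

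Of 12 tested genes that activate fatty acids or place them in phospholipids, 2 were lower in HFoleic and 0 higher, and the list's median was −0.03. Mfsd2a, a carrier of lysophosphatidylcholine with docosahexaenoic acid, was lower by −1.32 (SE 0.24, adjusted p = 0.00201, limma), and Acsl4, the acyl-CoA synthetase that prefers arachidonic acid, by −0.65 (SE 0.18, adjusted p = 0.0301, limma). The HFepa values for them were −0.95 (adjusted p = 0.0753, limma) and −0.51 (adjusted p = 0.220, limma). Of 13 genes of peroxisomal chain shortening, the step that ends the synthesis of docosahexaenoic acid, 1 was lower in HFoleic, Ehhadh (−1.12, SE 0.27, adjusted p = 0.0121, limma), beside a median of 0.06.

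Among 14 regulators of fatty acid synthesis, 3 were higher and 2 lower in HFoleic (median 0.11). Insig1, which holds SREBP in the endoplasmic reticulum, was 1.47 higher (SE 0.21, adjusted p = 0.000401, limma), Srebf1 1.02 higher (SE 0.22, adjusted p = 0.00552, limma) and Mlxipl, the gene of ChREBP, 0.55 higher (SE 0.10, adjusted p = 0.00163, limma). Insig2, its relative, was lower by −0.55 (SE 0.12, adjusted p = 0.00638, limma), and Mbtps2, a protease that releases SREBP, by −0.23 (adjusted p = 0.0260, limma). In HFepa vs. reference 1 was called, Mlxipl (0.44, SE 0.10, adjusted p = 0.0458, limma). Srebf1 was at 0.41 there (adjusted p = 0.448, limma), and HFepa vs. HFoleic was at −0.61 for it (adjusted p = 0.373, limma).

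Of 11 tested lipogenic genes that SREBP1c is known to drive 0 were called higher and 1 lower, Acacb (−0.78, SE 0.21, adjusted p = 0.0225, limma), in HFoleic. By sign 6 of the 11 were higher, with a median of 0.14, among them Fasn, the fatty acid synthase, at 0.63 (adjusted p = 0.144, limma) and Acly, which supplies its acetyl-CoA, at 0.28 (adjusted p = 0.173, limma). Of 17 targets of PPARalpha, 7 were lower and 0 higher in HFoleic, with a median of −0.43 against −0.01 over all genes. Ehhadh, already counted under peroxisomal chain shortening, is 1 of the 7. The 7 also include Cyp4a14 (−0.71, adjusted p = 0.000718, limma), Cpt1a, the carnitine transferase of fatty acid oxidation (−0.43, adjusted p = 0.00239, limma), and Fgf21, a liver hormone of fasting (−1.07, adjusted p = 0.0296, limma). In HFepa vs. reference 0 of 17 were called in either direction, with a median of 0.01. In HFepa vs. HFoleic 15 of 17 were higher by sign, with a median of 0.20 and 0 called. The HFoleic livers are shared with HFoleic vs. reference, which by itself favours opposite signs.

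Elovl3 and some other genes of lipid metabolism are known to follow sex and time of day in liver, so 2 further lists were read. Of 11 male-biased genes 3 were lower in HFoleic, and 2 of these are named here, Cyp2u1 at −0.43 (adjusted p = 0.00993, limma) and Cyp4a12a at −1.04 (adjusted p = 0.0349, limma). Of 14 clock genes 1 was higher, Nr1d2 at 0.58 (adjusted p = 0.0100, limma). In HFepa vs. reference and in HFepa vs. HFoleic 0 genes of either list were called.

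**Figure D5:**
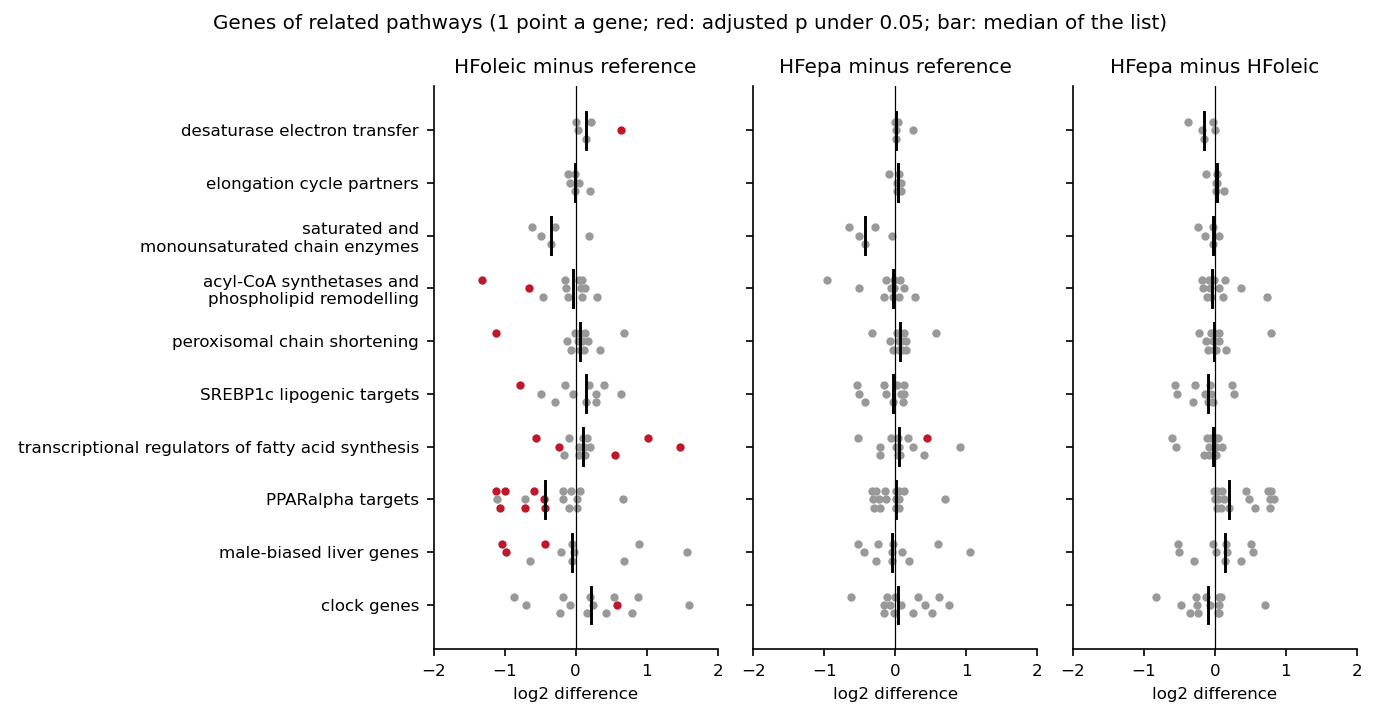
Log2 difference of each tested gene (points) of 10 lists of related genes in the 3 comparisons; red marks an adjusted p below 0.05 and black bars the median of a list. Red points are frequent in HFoleic minus reference, most of them in the PPARalpha list (7 lower) and the regulators (3 higher, 2 lower), and there is 1 in HFepa minus reference and none in HFepa minus HFoleic. Ehhadh is drawn both among the PPARalpha targets and under peroxisomal chain shortening.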

How the data were processed

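RNA of 24 livers was hybridised to Agilent one-colour arrays and read with Feature Extraction 10.10.1.1, per the labels. The authors deposited the scanner output, whose signals are spot intensity values, and a table of log2 median signal of 32176 probes that the authors had filtered and quantile normalised. The scanner files were used: log2 median signal, outlier spots left out, spots of a probe averaged, probes kept if well above background on 75% of the arrays of at least 1 group, and quantile normalisation. Groups were compared with limma 3.58.1 (group means, 3 contrasts, 24 arrays, R 4.3.3), with Benjamini-Hochberg adjustment over 30003 probes and calls below 0.05. The precision is limited by the number of arrays. The code was tested on simulated data. The alternatives were the deposited table, 2 other signals, 2 other filters, outlier spots kept, slide, slide row and replicate number as blocks, 2 groups alone, the per-probe test of the study's methods (Student's t), all probes of a gene, and leaving out each array.

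The members and the gene lists were chosen with earlier results of these data known. Named were every member and, from each list, up to 4 called genes or the 2 smallest p-values, and 3 most similar genes to each called member, of which 1 is not reported here; Mbtps2 as the fifth regulator, Fasn, Acly and the comparison of Fads1 probe 2 with the other member probes were added after values were seen. Nothing states whether same-numbered mice share a litter or day. Their deviations correlated from −0.17 to 0.10 over 8 pairs in HFoleic vs. reference, −0.07 to 0.35 over 7 pairs in HFepa vs. reference and −0.30 to 0.04 over 7 pairs in HFepa vs. HFoleic, with 1, 2 and 0 pairs over 0.1, so the numbers were not taken as pairs.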

Additional observations from a re-analysis of the deposited data

Results flagged for a closer look

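In 4 of the 33 groups tested (the brightest and the called probes, 11 in all, in each of 3 groups), the highest or lowest liver lay far from the rest of its group, and chance alone flags about 1 in 20 groups. For Fads3, HFoleic replicate 6 was the highest of its group at 10.3527, and the next liver was at 8.0929. The other 3 were the same liver, reference replicate 5. It was the highest for Elovl1 at 14.0351 (next 13.2272) and for Elovl7 at 8.1334 (next 6.1786), and the lowest for Elovl3 at 11.0907 (next 14.1379). Its summed bile duct marker signal, which mostly reads Spp1, was 13.40, against at most 11.41 in the other reference livers. The part of other cell types in these values was not tested.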

How the results depend on the processing

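Fads1 probe 2 passed in HFoleic vs. reference under all 11 alternatives (0.85 to 1.02, adjusted p = 0.00933 to 0.0300, limma or the methods' test) and in all 24 fits that left out 1 liver (0.82 to 1.02). Elovl5 probe 1 passed in 4 of 10 alternatives (adjusted p = 0.0266 to 0.159) and 7 of 24 such fits (−0.57 to −0.41). Its call was lost without reference replicates 2, 5, 6, 7 or 9, HFoleic replicates 1, 2, 5, 6, 7 or 8, or HFepa replicates 1, 2, 3, 4, 6 or 7, which enter only the shared spread and the adjustment. The count of member probes called was accordingly 1 instead of 2, Fads1 probe 2 alone, with the deposited table, with no filter, with probes well above background on all 24 arrays, with outlier spots kept, with only the 2 groups compared and with the methods' test for each probe, and lay between 1 and 2 when a liver was left out. With the replicate number as a block, a pairing that the data did not bear out, it was also 1. In the other 2 comparisons it was 0 throughout.

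Signs changed in differences that had not passed, the largest of them Elovl7 (−0.25) and Elovl3 (−0.19) in HFepa vs. reference when 1 liver was left out. Elovl1 in HFepa vs. reference was 0.01371 with the processed signal and 0.005515 with slide as a block. In HFepa vs. HFoleic, Elovl5 probe 3 was −0.03514 and Elovl7 −0.01196 with the replicate block, and Elovl5 was −0.02602 as the mean over its probes. As the mean over its probes, Fads6 was −0.1539 for HFoleic and −0.1478 for HFepa relative to the reference, and 0.006084 between them. The causes were not tested. Leaving out 1 liver gave −0.04032 to 0.1367 for Fads1 probe 3 in HFoleic vs. reference. In HFepa vs. reference the ranges were −0.06022 to 0.09225 for Fads1 probe 3, −0.05982 to 0.1089 for Elovl1, −0.581 to 0.1074 for Elovl3 and −0.3507 to 0.003976 for Elovl7. In HFepa vs. HFoleic they were −0.03778 to 0.1235 for Fads2, −0.1146 to 0.06601 for Fads1 probe 3, −0.1094 to 0.01368 for Elovl5 probe 1, −0.06447 to 0.08697 for Elovl5 probe 3 and −0.07379 to 0.08374 for Elovl7. The 8 correlations kept their sign in all 48 recalculations. Dim probes, Elovl5 probe 1 and Elovl7 among them, have a signal near background, which limits their values.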
